A study of Mus musculus with 8 samples.

Results

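Footprints per input RNA read were measured for 7648 of the 22553 genes listed for mature olfactory sensory neurons of control mice. These genes had at least 50 counts in both the footprint column and the input RNA column, and were taken as all genes that met this minimum. The cells carried the OMP-ires-GFP knock-in allele and were sorted as OMP-GFP-positive cells from the main olfactory epithelium, the sheet of nasal tissue that holds the smell-sensing neurons. OMP, the olfactory marker protein, is made by mature olfactory neurons, so the reporter marks that stage. The control mice were described as Mex3a flox/flox or flox/+ without a Cre driver, while their genotype tag gives only fl/fl; Mex3a encodes an RNA-binding protein. The labels list 2 footprint libraries for these controls, and the table has 1 footprint column and 1 input RNA column. Columns of 3 other groups were used only side by side: OMP-GFP cells from Mex3a flox/flox mice with a Cre driver (KO), and Ngn1-GFP cells, which are neuronal progenitors and immature neurons, from mice with that deletion and from mice without Cre. The genotype tag of the OMP-GFP KO names OMP-ires-Cre where its description names OMP-ires-GFP, and the description was followed. No age is stated.

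A ribosome protects a short stretch of the mRNA it is reading, and sequencing these footprints shows which messages are being translated. Dividing footprints by input RNA over the same coding sequence gives a measure of how densely ribosomes sit along a message, so at an equal ratio a longer message carries more of them. Messages are known to differ in this through their start region, short reading frames upstream of the main one, coding length and the proteins bound to them. Mature olfactory neurons are known for genes of odour signalling, of the cilia in which it takes place, and of the folding and transport of odorant receptors.

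The control columns held 3576406 footprints and 31855259 RNA reads over coding sequences, and the 7648 genes took 97.1% of the footprints and 92.9% of the RNA reads. The median gene had 185 footprints and 1880.5 RNA reads. Because the columns differ in depth, a ratio has meaning only between genes, so each is given as log2 of footprints per RNA read relative to the median of the 7648 genes. That median is 11.8 footprints per 100 RNA reads, and a relative log2 value of 1 is a 2-fold higher ratio. With 1 column per assay there are no replicates, no test and no p-value; intervals are exact 95% intervals that cover counting error only. Defining markers fitted the label: the 22 mature neuron markers summed to 46388 TPM of input RNA, 16501 TPM of it S100a5. The 18 immature neuron markers summed to 6115 TPM. Sums of other lists were 226 TPM for sustentacular cells, 115 TPM for precursors and dividing cells and 45.2 TPM for immune cells. Nasal glands summed to 199 TPM (125 TPM of it Sec14l1) and ensheathing glia to 528 TPM (489 TPM of it Ptn). Red cells and vessels summed to 169 TPM, microvillar cells to 15.6 TPM (8.09 TPM of it Pou2f3) and horizontal basal cells to 7.01 TPM. At 0 RNA counts were 5 of 12 microvillar and tuft cell markers and 1 of 15 immune markers. In sorted pools, few cells of a type and little RNA per cell cannot be told apart.

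The spread between genes was far wider than counting error. Percentiles 5 and 95 lay at -2.05 and 1.78, which are 2.84 and 40.5 footprints per 100 RNA reads, and the quartiles at -0.80 and 0.70. Among genes with 50 to 100 footprints the SD of the log2 values was 1.32 and counting alone gave 0.185; among the 611 genes with at least 1000 footprints the 2 values were 0.955 and 0.038. Between the control and OMP-GFP KO columns, which also differ in genotype, the SD of the difference was 0.558 and 0.358 for genes of these 2 groups measured in both. Ratios thus varied between columns by more than the counting intervals cover. At least 2-fold above the median gene were 1326 genes (17.3%), and at least 2-fold below it were 1534 genes (20.1%).

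The minimum of 50 footprints shapes this ranking at low RNA. A median gene reaches 50 footprints at 425 RNA reads, so a gene with fewer reads enters only with a higher ratio. Of the 12262 genes with at least 50 RNA reads, 4614 had fewer than 50 footprints. The 44 genes with exactly 50 footprints had 64 to 3122 RNA reads and a median of -0.24, and the 58 genes just outside, with 49 footprints, had a median of -0.58. Classes of genes are therefore described over the 7886 genes with at least 500 RNA reads, with no minimum for footprints and 0.5 added to each count. Their median was -0.39 on the same scale (8.95 footprints per 100 RNA reads), 765 of them (9.70%) lay at least 2-fold above the median gene, and 2517 (31.9%) at least 2-fold below it. Every class below is to be read against these values.

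**Figure D1:**
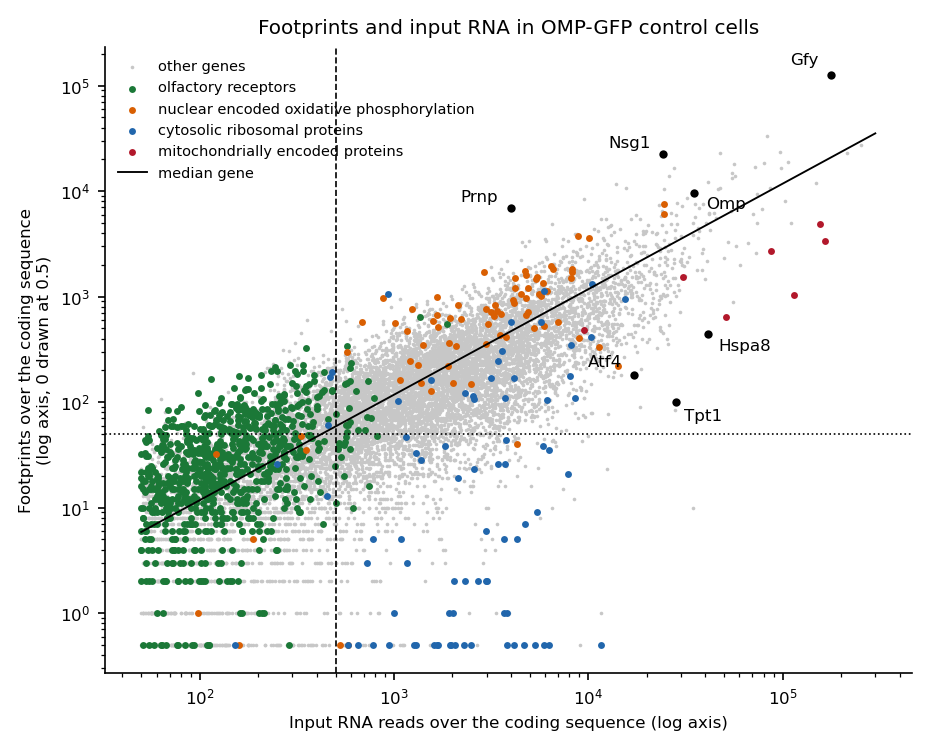
Footprints (vertical, log axis, 0 drawn at 0.5) against input RNA reads (horizontal, log axis) for the 12262 genes with at least 50 RNA reads in the OMP-GFP control. The solid line is the median gene of 11.8 footprints per 100 RNA reads, the dotted line 50 footprints and the dashed line 500 RNA reads. Ribosomal protein genes (blue) spread far below the line, mitochondrially encoded genes (red) lie below it, and Gfy, Nsg1 and Prnp stand above it.

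Gfy took more footprints than any other gene. Gfy (goofy, ENSMUSG00000095276), a Golgi membrane protein of olfactory neurons, had 124840 footprints and 176738 RNA reads. This was 3.49% of all footprints and 0.555% of all RNA reads, a relative log2 value of 2.59 (95% interval 2.58 to 2.60). Fstl5, a secreted follistatin-like protein, was next with 33630 footprints and 83436 RNA reads (1.78). Chga, a protein of secretory granules, had 23478 footprints and 96883 RNA reads (1.04). Stom, the membrane protein stomatin, had 23170 footprints and 47797 RNA reads (2.04). Map1b, a microtubule-associated protein of growing axons, had 23022 footprints and 215700 RNA reads (-0.14), so it reached a similar footprint count at a ratio near the median.

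The highest ratios, ranked by the interval bound nearest the median, were led by Prnp. Prnp (ENSMUSG00000079037), which encodes the cell surface prion protein, had 6888 footprints and 3993 RNA reads (3.87, interval 3.82 to 3.93), a 14.7-fold higher ratio than the median gene. Opn3, an opsin, had 190 footprints and 92 RNA reads (4.13, interval 3.77 to 4.51). Banf1, a small DNA-bridging protein of the nuclear envelope, had 606 footprints and 356 RNA reads (3.86). Elof1, a transcription elongation factor, had 763 footprints and 541 RNA reads (3.58). These genes, with the receptors Olfr73 and Olfr1286, Tuba1c, Polr3k, Rps25, Sdhc, B2m and Nsg1, form the 12 highest. Nsg1, an endosomal protein of neurons, had 22524 footprints and 24227 RNA reads (2.98), the most footprints among them. Tuba1c and Rps25 have near-identical copies elsewhere in the genome, and how reads were divided between copies is not known.

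At the other end stood genes with many RNA reads and few footprints. Ywhaz (ENSMUSG00000022285), a 14-3-3 adaptor protein, had 84 footprints and 27933 RNA reads (-5.29, interval -5.62 to -4.98), a 39.1-fold lower ratio than the median gene. Tpt1, the translationally controlled tumour protein, had 100 footprints and 28223 RNA reads (-5.05). Ybx1, an mRNA-binding cold shock protein, had 89 footprints and 18367 RNA reads (-4.60). Cep126, a protein of the centrosome and cilium base, had 77 footprints and 12689 RNA reads (-4.28). The rest of the 12 lowest were Dennd5a, R3hdm2, Cfap44, Dlgap3, Naca, Tshz1, Set and mt-Nd1, between -4.03 and -3.70. Tpt1 has 7 pseudogenes that carry its name in the RefSeq table and Ybx1 has 1.

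Ribosomal protein messages are known for a start made of C followed by a run of pyrimidines, through which their translation is controlled as a group. The start regions of 2 genes with high ratios and 2 with low ratios are shown as examples and do not stand for all genes at either end. Each window runs over 15 bases before and 15 bases from the annotated start, as RefSeq gives it on GRCm38.p6; capitals mark the C near the start that has the longest unbroken run of C or T after it, with that run.
Prnp (chr2:131909913-131909942, plus strand): ctcccgcctgccccgCCCCTTTCCactccc
Rps25 (chr9:44407699-44407728, plus strand): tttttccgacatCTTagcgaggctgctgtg
Eef1a1 (chr9:78481710-78481739, minus strand): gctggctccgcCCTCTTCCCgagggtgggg
Atf4 (chr15:80255169-80255198, plus strand): gaccgtcagagCTTTggctaggtgtcccac
After the C, Prnp has 8 such letters and Eef1a1 has 8, and the 2 genes lie at 3.87 and -2.12. Rps25 has 2 and Atf4 has 3, at 3.28 and -3.50. The window of Rps25 opens with a longer run of T and C, further before the annotated start. Eef2, known for the same kind of start, has 0 such letters at its annotated start. A C followed by at least 4 letters that are C or T, beginning between 4 bases before and 6 bases after the start, was found on the transcribed strand for 1189 of the 6187 genes with at least 500 RNA reads that matched a start (19.2%). The same search gave 15.4% of the 32851 RefSeq start regions in the table. Genes with the run had a median of -0.39 and genes without it -0.41. Among ribosomal protein genes, which are known for this start, the run was found in only 23 of 53 (43.4%). A search at annotated starts can thus miss known cases, so medians over all genes cannot show whether the run goes with the ratio. Ribosomal protein genes had a median of -4.16 with the run and -5.98 without it. Elongation factors and their partners had -1.83 with it (6 of 13 genes) and -1.05 without it.

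Over the same 6187 genes, ratios were lower where the first 50 transcribed bases were richest in G and C. Medians over 5 equal groups by G and C content were -0.26, -0.20, -0.26, -0.47 and -0.86 in order of increasing content, and the highest group spans 76% to 94%. The rank correlation was -0.15, and -0.14 with coding length held fixed. Genes are not independent replicates, and these bases come from the annotated start and not from the cells.

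Genes of odour signalling lay on both sides of the median gene. Odour binding activates the G protein of Gnal, which switches on the cyclase of Adcy3; the cAMP made opens a channel built from Cnga2, Cnga4 and Cngb1. The 22 measured genes of the list had a median of 0.03, with 4 at least 2-fold above the median gene and 3 at least 2-fold below. Gnal had 16431 footprints and 97959 RNA reads (0.51), and Adcy3 had 6447 footprints and 54490 RNA reads (0.01). The channel subunits differed: Cnga4 had 4729 footprints and 13076 RNA reads (1.62), Cngb1 2014 footprints and 19342 RNA reads (-0.18), and Cnga2 2577 footprints and 38572 RNA reads (-0.82). The counting interval of Cnga4, 1.57 to 1.67, lay far from that of Cnga2, -0.87 to -0.76.

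Omp itself had 9663 footprints and 34960 RNA reads (1.23); its locus carries the knock-in allele. S100a5, a calcium-binding protein of mature olfactory neurons, had 8064 footprints and 102990 RNA reads (-0.59). Over the 22 mature neuron markers the median was 0.47, and 8 were at least 2-fold above and 1, the phosphodiesterase Pde4a (-1.20), at least 2-fold below.

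Proteins that fold receptors and carry them to the membrane had high ratios. Receptor transport and folding genes had a median of 0.66 over 28 genes, with 10 at least 2-fold above the median gene and 0 at least 2-fold below. Rtp1 and Rtp2, which escort odorant receptors to the cell surface, had 5402 footprints and 11585 RNA reads (1.99) and 3260 footprints and 4538 RNA reads (2.61). Ssr2, a subunit of the translocon-associated complex, had 794 footprints and 967 RNA reads (2.80). Calr and Hsp90b1, chaperones of the endoplasmic reticulum, lay at 1.21 and 0.95. Sec63 (-0.69) and Ssr4 (-0.58) lay lowest with Reep6 (-0.69).

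The side of the median gene on which odorant receptor genes lay differed with the selection: the 217 with at least 50 counts in both columns had a median of 1.79, and the 34 with at least 500 RNA reads one of -0.29. Each olfactory neuron expresses 1 receptor gene, so in a sorted pool each receptor's RNA comes from few cells. Of 1192 receptor genes in the table, 1062 had a footprint, 823 had at least 50 RNA reads and 217 passed both minimums. Grouped by their own RNA reads with no minimum for footprints, they had 33.4 footprints per 100 RNA reads at 20 to 50 reads (189 genes), 28.1 at 50 to 100 (272 genes), 25.9 at 100 to 200 (312 genes), 21.4 at 200 to 500 (205 genes) and 17.2 at 500 or more (34 genes). Other genes of about the coding length of receptors, in the same groups, had 13.9, 15.9, 13.6, 17.1 and 14.0. The summed ratio of receptors was thus higher than that of other genes of like length in every group, and most so at low RNA. The RNA reads of the OMP-GFP KO column share no reads with the control ratio. Grouping by them instead gave 31.6, 26.1, 24.3, 21.9 and 18.3 for receptors. In the groups by control reads, medians were also higher for receptors below 500 reads. At 500 or more reads the medians went the other way, -0.29 for receptors and 0.05 for the other genes of like length.

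Individual receptors differed widely. Olfr1507 had the most footprints, 646 with 1361 RNA reads (2.01), and Olfr536 had 549 with 1867 (1.32). Olfr1348 had 343 footprints and 572 RNA reads (2.35), while Olfr131 had 16 footprints and 747 RNA reads and Olfr1196 had 10 and 614. Among the 34 receptors with at least 500 RNA reads, the median receptor lay below the median gene although their summed ratio lay above it. Receptor genes have close relatives, so part of their reads may be assigned to the wrong family member or dropped.

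**Figure D2:**
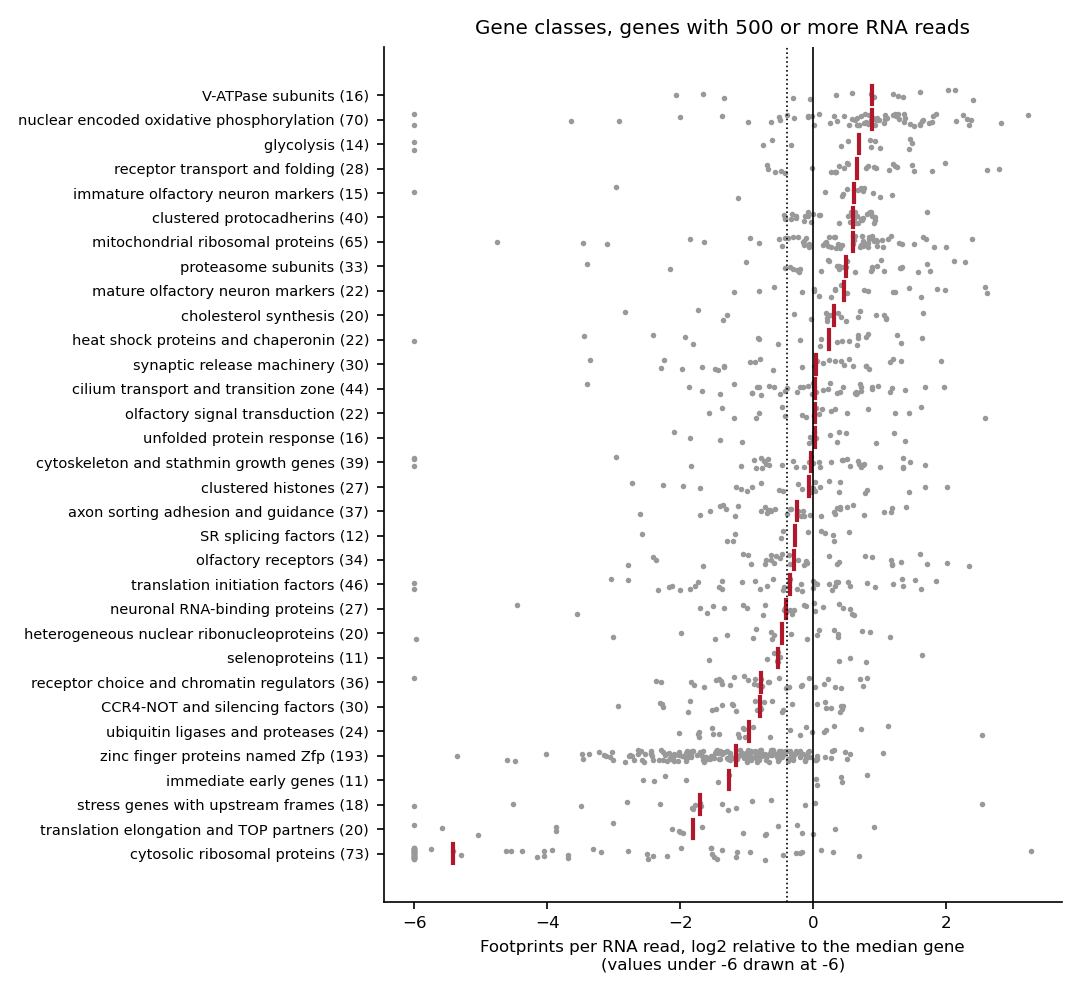
Footprints per RNA read (horizontal, log2 relative to the median gene, values under -6 drawn at -6) for genes with at least 500 RNA reads, for classes with at least 10 such genes, with the number of genes in parentheses. Points are genes, red bars class medians, the solid line the median gene and the dotted line the median of all 7886 genes at -0.39. Of the classes drawn, cytosolic ribosomal protein genes lie lowest (-5.42), and V-ATPase and oxidative phosphorylation genes highest (both 0.89).

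Mitochondrial proteins split by where they are encoded. Nuclear genes for oxidative phosphorylation, the respiratory chain and ATP synthase, had a median of 0.89 over 70 genes; 30 lay at least 2-fold above the median gene and 6 at least 2-fold below. Sdhc and Sdhd, the membrane anchors of complex II, had 975 footprints and 878 RNA reads (3.24) and 573 footprints and 687 RNA reads (2.83). Atp5b, the catalytic subunit of ATP synthase, had 7496 footprints and 24659 RNA reads (1.37). Cox5b went the other way with 220 footprints and 14136 RNA reads (-2.92), and it has 1 named pseudogene. Mitochondrial ribosomal proteins had a median of 0.59 over 65 genes, with 12 at least 2-fold above and 5 below, led by Mrpl17 with 804 footprints and 1301 RNA reads (2.39).

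Genes encoded in the mitochondrial genome are translated by the mitochondrion's own ribosomes. All 7 with at least 50 RNA reads, of 13 in the table, lay at least 2-fold below the median gene, with a median of -1.92. The rest of the 13 had fewer RNA reads than this minimum, and the part of read assignment in that was not tested. mt-Nd1 had 1035 footprints and 114160 RNA reads (-3.70), mt-Co1 had 3333 footprints and 164669 RNA reads (-2.54), and mt-Nd6 had 484 footprints and 9485 RNA reads (-1.20). The quartiles of the 2 classes did not overlap, 0.26 to 1.38 for the nuclear class and -2.88 to -1.58 for the mitochondrial one.

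Other energy and organelle classes also had high medians. V-ATPase subunits, which acidify vesicles, had a median of 0.89 over 16 genes (7 above, 3 below), with Atp6ap1 at 1821 footprints and 3541 RNA reads (2.13) and Atp6v1g1 at 118 footprints and 3164 RNA reads (-1.66). Glycolysis genes had a median of 0.68 over 14 genes, but the 2 with most footprints, Pkm (2295 footprints and 29946 RNA reads, -0.62) and Aldoa (1704 and 18269, -0.33), lay below the median gene. Proteasome subunits had a median of 0.50 over 33 genes (10 above, 3 below), led by Psma7 with 2170 footprints and 3796 RNA reads (2.28). Cholesterol synthesis genes had a median of 0.31, with Msmo1 at 1.65 and Fdps at -1.74.

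Ribosomal protein messages had low ratios. Of 73 cytosolic ribosomal protein genes with at least 500 RNA reads, 63 lay at least 2-fold below the median gene, 52 had fewer than 50 footprints and 21 had none, and the class median was -5.42. Only 24 ribosomal protein genes passed both minimums. Rpl7 had 110 footprints and 8586 RNA reads (-3.20), Rpl8 had 1329 and 10397 (0.12), Rps3 had 1120 and 5908 (0.69), and Rps25 had 1065 and 932 (3.28). The largest count without a footprint was Rpsa, with 0 footprints and 11573 RNA reads; taking 3 footprints as the limit a count of 0 allows, its ratio was at least 454-fold lower than that of the median gene. Translation elongation factors and other genes known for the same kind of start had a median of -1.81 over 20 genes, 12 of them at least 2-fold below; 6 have a named pseudogene, and the other 14 had a median of -0.88. Eef1a1, which delivers tRNA to the ribosome, had 667 footprints and 24681 RNA reads (-2.12), and Eef2, which moves the ribosome along, had 2800 footprints and 39120 RNA reads (-0.72). Initiation factors lay near the background, with a median of -0.36 over 46 genes, 6 at least 2-fold above and 15 at least 2-fold below. Those of them with at least 50 footprints ranged between Eif3k (1.85) and Eif4e3 (-2.35). Further down, Eif1 had 0 footprints and 2668 RNA reads, and Eif3j1 had 0 and 554.

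Genes with few or no footprints often have a pseudogene of their own name. Such copies can make a short footprint match several places, and whether reads with several matches were kept is not stated. Of the 41 genes with at least 500 RNA reads and no footprint, 30 (73.2%) have a pseudogene of their own name in the RefSeq table, against 2.89% of all 7886 genes. The share was 27.6% in genes over 16-fold below the median gene, 5.59% at 4 to 16-fold below, and 0.727% at 2 to 4-fold above. Stmn1, a microtubule regulator of neurons, had 0 footprints and 9087 RNA reads and has 2 such pseudogenes; Tmsb10, an actin-binding peptide, had 0 and 3766 and has none in that table. In the OMP-GFP KO column, 33 of the 41 genes also had no footprint. Of the 73 ribosomal protein genes, 60 have a named pseudogene, and the other 13 had a median of -2.49. How much of the low ratios comes from assignment of reads was not tested.

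**Figure D3:**
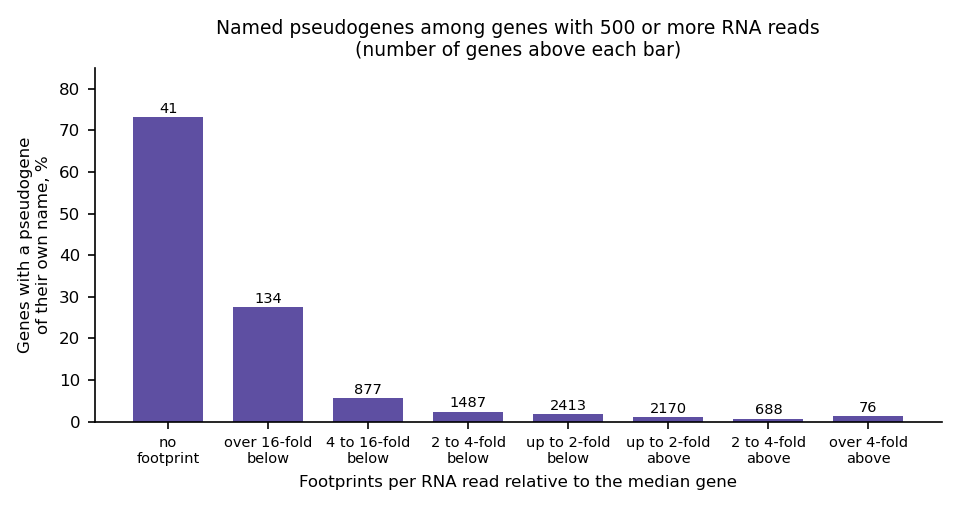
Share of genes with a pseudogene of their own name (vertical, percent) among genes with at least 500 RNA reads, in bins of footprints per RNA read relative to the median gene (horizontal), with the number of genes above each bar. The share is 73.2% among the 41 genes with no footprint and 0.727% among the 688 genes 2 to 4-fold above the median gene.

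Stress response genes whose messages carry short reading frames upstream of the coding sequence had low ratios. Such frames are known to hold back translation of the main frame until stress lowers initiation. The 18 genes measured had a median of -1.70, and 13 lay at least 2-fold below the median gene. Atf4, the main transcription factor of this response, had 179 footprints and 17268 RNA reads (-3.50, interval -3.72 to -3.29). Ppp1r15a, a phosphatase subunit that ends the response, had 299 footprints and 17784 RNA reads (-2.81), and Ddit3, a later transcription factor, had 284 footprints and 8468 RNA reads (-1.81). Atf5, which olfactory neurons use in the feedback after receptor choice, had 3028 footprints and 57376 RNA reads (-1.16). Uchl1, an abundant neuronal ubiquitin hydrolase placed in the same list, had 10685 footprints and 15545 RNA reads (2.55) and was the only member at least 2-fold above. Genes of the unfolded protein response, a related list, had a median of 0.03 over 16 genes, with Atf6 at 1.21 and the kinase Eif2ak3 at -1.86.

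Immediate early genes, which are switched on within minutes of stimulation, had a median of -1.27 over 11 genes. The class was split, with 6 at least 2-fold below the median gene and 5 above it. Over the 12 that passed both minimums the median was -0.61. Egr1 had 473 footprints and 23722 RNA reads (-2.56), Fos had 696 and 16041 (-1.44), and Jun had 1294 and 26484 (-1.27), while Ier5 had 244 and 1185 (0.81).

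Zinc finger genes lay low as well, and lists of other regulators were nearer to all genes. Zinc finger proteins named Zfp had a median of -1.16 over 193 genes, with 109 at least 2-fold below and 1 at least 2-fold above; Zfp644 had 328 footprints and 22638 RNA reads (-3.02), and Zfp207 had 1256 and 5131 (1.06). Receptor choice and chromatin regulators had a median of -0.78 over 36 genes, and 13 lay at least 2-fold below, a share near the 31.9% of all genes with 500 RNA reads. Lhx2, a homeodomain factor needed for receptor expression, had 356 footprints and 14757 RNA reads (-2.29), and Ebf2 had 3023 and 19217 (0.42). CCR4-NOT and silencing factors, which shorten poly(A) tails and repress mRNAs, had a median of -0.79 over 30 genes, with 12 at least 2-fold below; Tnrc6a lay at -2.94 with 82 footprints and 5363 RNA reads, and its relative Tnrc6b at 0.42 with 760 footprints and 4817 RNA reads. Mex3c, a relative of Mex3a, had 62 footprints and 6208 RNA reads (-3.56). Mex3a itself had 16 footprints and 387 RNA reads in these mature neurons and was below the minimum.

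Neuronal surface and release genes were mixed. Clustered protocadherins, adhesion proteins that give neurons their identity on the surface, had a median of 0.60 over 40 genes. Only 1 lay at least 2-fold above the median gene and none at least 2-fold below. Pcdhb1 had 3909 footprints and 17543 RNA reads (0.92). Axon sorting, adhesion and guidance genes had a median of -0.24; Ncam1 had 14763 footprints and 55124 RNA reads (1.19), and Dscam had 131 and 6775 (-2.60). Synaptic release genes had a median of 0.03, with the vesicle protein Syp at 3892 footprints and 8766 RNA reads (1.92) and the active zone scaffold Bsn at 713 and 29565 (-2.29). Cilium genes had a median of 0.03, with the small GTPase Arl3 at 3924 footprints and 8567 RNA reads (1.96) and Ahi1 at 357 and 11057 (-1.87). Chaperones ranged between Cct8 (1.64) and Hspa8, with 444 footprints and 41436 RNA reads (-3.46). Among heterogeneous nuclear ribonucleoproteins, Hnrnpl lay at 1.15 and Hnrnpa1 at -3.02.

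Longer coding sequences had fewer footprints per RNA read. Over the 7648 genes the rank correlation with coding length was -0.454, and medians over 10 bins of length fell to -0.99 in the longest bin (3888 bases and more), against 0.58 in the shortest (up to 618 bases). The third bin, with a median length of 951 bases, stood highest at 0.84 and held 214 of the receptors; without receptors the bin around that length had a median of 0.44. With the selection by RNA alone the correlation was -0.290, and the longest bin had a median of -1.13 against -0.05 in the shortest and 0.16 in the second. Within 5 groups of genes by RNA level it was -0.30, -0.33, -0.35, -0.32 and -0.10 in order of increasing level, so it was weakest among the most abundant messages. Scaffolds such as Bsn, Macf1 (1980 footprints and 60170 RNA reads, -1.84) and Ank3 (1516 and 27377, -1.09) lay low, and Map1b (-0.14), with 7449 coding bases, did not.

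Set against genes of like length, some classes moved more than others. The length bins hold the genes with 500 RNA reads, whose overall median is -0.39. Values in this paragraph thus have another zero than the class medians above, and part of any shift is that change of reference. Relative to the median of their length bin, chromatin regulators lay at -0.17, CCR4-NOT and silencing factors at -0.44, ubiquitin ligases and deubiquitinases at 0.05, and Zfp genes at -0.67. Protocadherins lay at 1.20, mature neuron markers at 0.92, oxidative phosphorylation genes at 0.99 and receptor transport genes at 0.74. Stress genes with upstream frames lay at -1.45 and mitochondrially encoded genes at -1.80.

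The relation with RNA level differed in sign between the selections. Over the 7648 genes the rank correlation with RNA TPM was -0.217, and the lowest of 10 bins of level had a median of 0.92, against -0.03 in the highest. Among the 7886 genes selected by RNA reads alone, the correlation was 0.083, the lowest bin had a median of -0.80 and the highest -0.14. That lowest bin holds mostly long genes, since 500 RNA reads at a low TPM need a long coding sequence. With both the level and the selection from the OMP-GFP KO input column, which shares no reads with the control ratio, it was 0.101. With level and selection from the control column, where the RNA count is part of both measures, the correlation with length held fixed was -0.04. Within 5 groups of these 7886 genes by length it lay between -0.10 and 0.02.

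**Figure D4:**
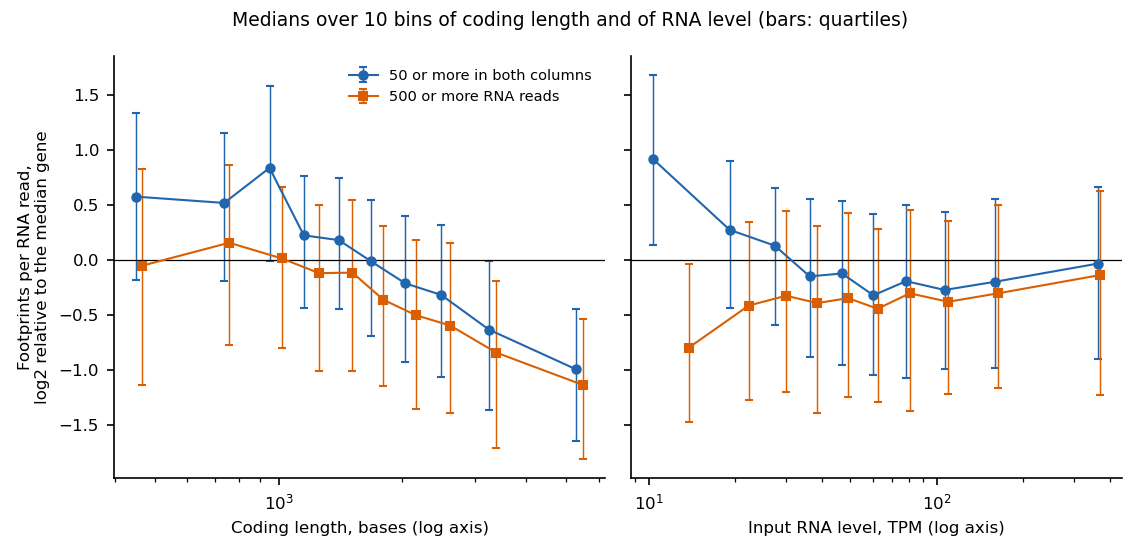
Medians (points) and quartiles (bars) of footprints per RNA read, log2 relative to the median gene, over 10 bins of coding length (left, bases, log axis) and of input RNA level (right, TPM, log axis), for genes with at least 50 counts in both columns (blue) and genes with at least 500 RNA reads (orange). With length both selections fall, to -0.99 and -1.13 in the longest bin; with RNA level the lowest bin is highest in blue (0.92) and lowest in orange (-0.80).

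The order of genes was much alike in the other columns, which come from other cells and share no reads with the control columns. Rank correlations were 0.894 with the OMP-GFP KO columns (7112 genes), 0.911 with the Ngn1-GFP control columns (7492 genes) and 0.922 with the Ngn1-GFP KO columns (6947 genes); genes share coding length and base composition across columns. At least 2-fold apart were 4.72%, 4.16% and 2.84% of these genes. Of the 1265 genes that were high in the OMP-GFP control and measured in the Ngn1-GFP control, 896 were high in both, which is 70.8% of them and 80.2% of the 1117 that were high in Ngn1-GFP control cells. Prnp lay at 3.87 in OMP-GFP control cells and 3.89 in Ngn1-GFP control cells, Gfy at 2.59 and 3.01, Atf4 at -3.50 and -2.88, and Atf5 at -1.16 and -0.21. Lhx2 lay at -2.29 in OMP-GFP control cells and -0.85 in Ngn1-GFP control cells. With 1 column each, none of these differences has a replicate check.

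Where the OMP-GFP control and Ngn1-GFP control columns were far apart, most genes had the higher ratio in the OMP-GFP control. Compared were genes with at least 50 counts in both columns of both groups. At least 4-fold higher in OMP-GFP control cells were 27 genes, and at least 4-fold lower were 2, Entpd5 and Cyp2f2. The 27 include 6 histone genes, 4 ribosomal protein genes, the polyubiquitin gene Ubb, and 3 receptors, and 8 of them (29.6%) have a named pseudogene, against 1.63% of the 7463 genes within 4-fold. Ubb had 626 footprints and 21589 RNA reads in OMP-GFP control cells (-2.02) and lay at -4.45 in the Ngn1-GFP control. Dnaja1 had 110 footprints and 1667 RNA reads in the OMP-GFP control, and 184 and 45795 in the Ngn1-GFP control. Rpl35a had 61 and 456 against 60 and 7664, so in both genes RNA counts differed far more than footprints. Of the 2 lower genes, Entpd5 had 67 and 910 against 689 and 3363. The Ngn1-GFP control columns held 4456989 footprints and 89327877 RNA reads in all. Histone, ribosomal protein and receptor genes have close relatives and Ubb encodes ubiquitin repeats; the part of read assignment in the difference was not tested. They were named after their values were seen.

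**Figure D5:**
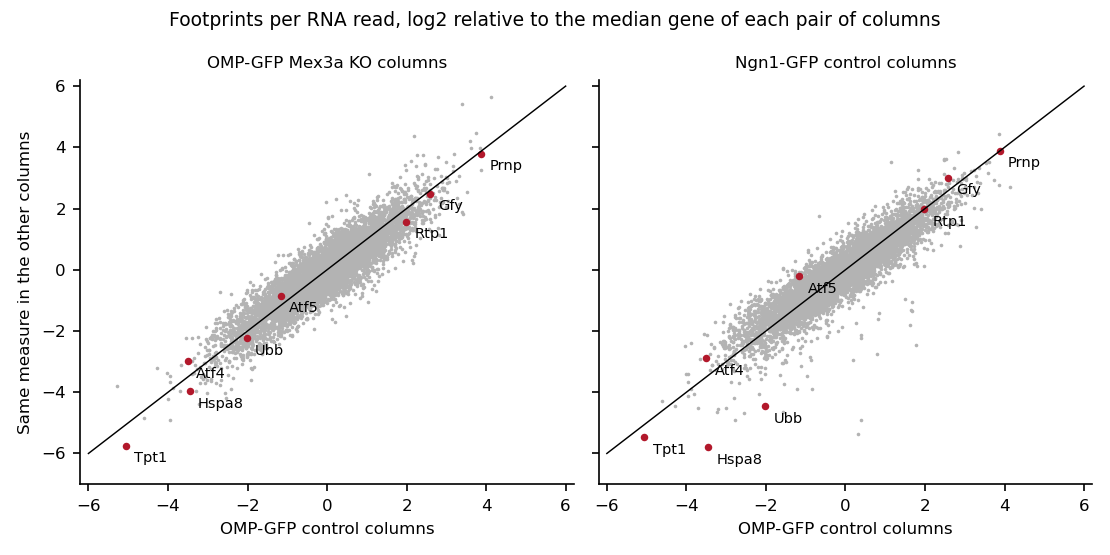
Footprints per RNA read, log2 relative to the median gene of each pair of columns, in the OMP-GFP control (horizontal) against the OMP-GFP Mex3a KO (left) and the Ngn1-GFP control (right); the line marks equal values and red points are named genes. Rank correlations are 0.894 and 0.911, and a group of genes with Hspa8 lies far below the line on the right.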

How the data were processed

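Footprints and input RNA of sorted mouse olfactory cells were analysed from 1 table that covers 4 groups in 24 columns of values. It holds, per the file headers, counts over coding sequences, footprint RPKM, RNA TPM, coding length and a translational efficiency ratio, which the authors deposited. The authors' ratio is the ratio of shares times 1.33 for every gene. FastQC, cutadapt, STAR and mm10 are named in the submitters' processing notes. The sources used here do not give how 2 libraries became 1 column or how reads with several matches were treated. RNA was extracted with TRIzol or a DirectZol kit, and libraries were made with a stranded low-input kit, per the labels' protocols.

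Footprint share over RNA share was computed per gene (Python 3.11.15, numpy 2.4.6, pandas 2.3.3, scipy 1.17.1; figures with matplotlib 3.10.9), with exact conditional binomial intervals; edgeR 4.0.16 in R 4.3.3 gave TMM factors as an alternative. The calculation was tested on simulated data. A gene was called at 2-fold from the median gene. RefSeq's GRCm38.p6 gene table held 94.5% of the symbols. The 45 gene lists, the gene selection and the alternatives were chosen with earlier results of these data known; the selection by 500 RNA reads was added after the values were seen. Named genes are the 10 with most footprints, the 12 highest and 12 lowest by interval bound, up to 4 highest, 4 lowest and 2 most abundant in each list, and a fixed set of neuronal, stress and translation genes; genes below the minimum and those far from the Ngn1-GFP control were named after their values were seen. Some genes and alleles are not reported here.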

Additional observations from a re-analysis of the deposited data

Results flagged for a closer look

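At least 50 footprints without matching input RNA were seen for 3 genes outside the ranking. Krt36, a hair keratin, had 70 footprints and 0 RNA reads in OMP-GFP control cells, 235 and 0 in OMP-GFP KO cells, and 153 and 0 in Ngn1-GFP control cells. Sh2d2a, a T cell adaptor, had 96 footprints and 0 RNA reads in OMP-GFP control cells, 373 and 0 in OMP-GFP KO cells, and 269 and 6 in Ngn1-GFP control cells. Vsig8 had 105 footprints and 1 RNA read in OMP-GFP control cells, 235 and 0 in OMP-GFP KO cells, and 63 and 31 in Ngn1-GFP control cells. Each was singled out because it has at least 50 footprints while its input RNA in OMP-GFP control cells is at or under 3 reads. That is the limit that a count of 0 allows.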

How the results depend on the processing

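No paired analysis was possible because each group has 1 column per assay, and for the same reason no replicate could be left out. Calls high and low numbered 1326 and 1534 of 7648 genes (17.3% and 20.1%) with at least 50 counts in both columns. They numbered 514 and 618 of 3620 genes with at least 200 counts. This set is smaller, so the lower counts do not by themselves show lower shares. With 500 RNA reads alone they numbered 765 and 2517 of 7886 genes (9.70% and 31.9%). The counts stayed within 1.5 times under the other alternatives. Of 40 classes with at least 3 genes, 13 had medians of 0.5 or more and 9 of -0.5 or less. With at least 200 counts these numbers were 7 and 9, and only 35 classes could be measured. With 500 RNA reads they were 8 and 11 of 37 classes. The sign of 15 of the 40 class medians turned under at least 1 alternative, 12 of them with a median within 0.5 of the median gene. The 3 with a larger median were ribosomal proteins, -0.84 among the genes that passed both minimums, 0.20 over 8 genes without named pseudogenes; receptors, -0.29 with 500 RNA reads; glycolysis, -0.11 from summed counts. The correlation with length was -0.414 and -0.514 with at least 20 and 200 counts, -0.524 given RNA level, -0.290 with 500 RNA reads and -0.288 with 500 reads in the OMP-GFP KO column. That with RNA level was -0.152 with at least 200 counts, -0.181 with the OMP-GFP KO level, -0.487 with reads not divided by length, -0.360 given length, -0.156 without genes that often have near copies, and it turned to 0.083 and 0.101 with 500 reads in the control and KO columns. Correlations with the OMP-GFP KO, Ngn1-GFP control and Ngn1-GFP KO columns were 0.916, 0.931 and 0.949 with at least 200 counts and 0.873, 0.888 and 0.894 with at least 20. Apart from the footprint minimum, the cause of these shifts was not tested. Depth limits genes under 50 footprints, and single columns leave variation between mice unmeasured.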

Other observations

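Gene families that share a name stem, taken as stems with at least 25 genes of 500 RNA reads, also spread widely. Cep genes, of centrosomes and cilium bases, had a median of -1.45 over 29 genes, with 19 at least 2-fold below the median gene. Zbtb transcription factors had a median of -1.33 over 30 genes, Usp deubiquitinases -1.11 over 36 genes and Rnf ubiquitin ligases -0.91 over 54 genes. Ddx helicases lay at -0.10, Wdr proteins at -0.05, Vps sorting proteins at 0.04, Tmem membrane proteins at 0.17 and Slc transporters at 0.23. All values are log2 relative to the median gene, against -0.39 for all genes with 500 RNA reads. Cep genes have a median coding length of 2967 bases, Zbtb genes of 2014.5 and Ube genes, at -0.92, of 666. Relative to genes of like length the medians were -0.58 for Cep, -0.25 for Usp, -0.70 for Rnf, -0.74 for Ube and -0.99 for Zbtb genes. Genes of like length were those with 500 RNA reads, which lie at -0.39 as a whole, so part of each change is a change of reference. Of these stems, Cep and Usp changed most.

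Few markers of other nasal cells passed both minimums. Bpifa1, a secreted gland protein, had 394 footprints and 596 RNA reads in the OMP-GFP control (2.49) and lay at 3.60 in the Ngn1-GFP control. Cyp2g1, a sustentacular cell cytochrome, had 200 footprints and 624 RNA reads (1.45) and lay at 2.56 in the Ngn1-GFP control. Only 6 of 20 gland markers and 10 of 25 sustentacular markers passed, and these genes have low RNA, so the footprint minimum bears on them too.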
